A study of Rattus norvegicus with 11 samples.

Results

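The 5 genes of the lysosome and of autophagy described here were measured in the retina of P23H rats: Ctsd, Ctsb, Lamp1, Lamp2 and Sqstm1. They were chosen by name, as genes of these organelles, with earlier results of these data known, and all 5 of 5 were in the gene table, which listed 12037 genes, 12031 of which passed the filter on low counts and were tested. The deposited tables give Ensembl identifiers alone, and the symbols are those under which the genes were chosen. Bulk RNA sequencing had been run on retinas of 11 female rats. Hemizygous P23H rats carry a rhodopsin transgene with the P23H mutation and came from a cross of transgenic line 1 with Long Evans rats (P23HxLE); 5 of these received DMSO and 4 received halofantrine, by intravitreal injection of both eyes in a volume of 5 µL. The injected concentration is known only as a range, 20 to 100 µM, and the concentration and the age that apply to these retinas were not given in the sources used here. The 2 wild-type rats (SDxLE) were labelled as not treated. Wild type and P23H DMSO therefore differed in transgene, parental strain, injection and DMSO at once, and these cannot be told apart. The sample titles of all P23H rats end in R and those of both wild-type rats in L.

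Lysosomes are acidic organelles in which hydrolases break down material delivered by endocytosis, phagocytosis and autophagy. Cathepsins D and B, encoded by Ctsd and Ctsb, are an aspartic and a cysteine protease of the lysosomal lumen. LAMP1 and LAMP2 are heavily glycosylated proteins of the lysosomal membrane, and p62, encoded by Sqstm1, is a receptor that carries ubiquitinated cargo into autophagosomes and is itself degraded there. Photoreceptors and the pigment epithelium turn over large amounts of membrane and protein, and the P23H mutation makes rhodopsin misfold. Halofantrine is an antimalarial drug. The comparison of halofantrine with DMSO asks whether transcripts of these genes differed in treated P23H retinas, and the comparison with wild type gives the level in retinas without the transgene.

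Many lysosomal genes carry an E-box, CACGTG, near their start; it is the core of the element bound by TFEB, a transcription factor that controls lysosome formation. The promoter windows of the members are shown because 4 of the 5 genes stood high together in a single library, described further on. Of those 4, Lamp2 held no E-box in its window and Ctsb had no window. Whether the motif or TFEB had any part in those levels was not tested. RefSeq windows of 300 bases, from 250 bases before the start to 50 after it, were found for 4 members in build GRCr8. All 4 genes lie on the minus strand, and each window is written 5′ to 3′ on that strand with every E-box in capitals. The windows are chr1:206968772-206969071 for Ctsd, chr16:83075014-83075313 for Lamp1, chrX:122087624-122087923 for Lamp2 and chr10:35037701-35038000 for Sqstm1. No window was printed for Ctsb.
Ctsd: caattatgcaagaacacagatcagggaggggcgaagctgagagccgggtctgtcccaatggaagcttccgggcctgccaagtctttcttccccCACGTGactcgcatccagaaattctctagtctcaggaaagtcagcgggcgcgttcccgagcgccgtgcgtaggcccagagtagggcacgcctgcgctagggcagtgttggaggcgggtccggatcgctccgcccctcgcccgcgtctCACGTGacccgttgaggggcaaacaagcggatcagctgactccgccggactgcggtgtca
Lamp1: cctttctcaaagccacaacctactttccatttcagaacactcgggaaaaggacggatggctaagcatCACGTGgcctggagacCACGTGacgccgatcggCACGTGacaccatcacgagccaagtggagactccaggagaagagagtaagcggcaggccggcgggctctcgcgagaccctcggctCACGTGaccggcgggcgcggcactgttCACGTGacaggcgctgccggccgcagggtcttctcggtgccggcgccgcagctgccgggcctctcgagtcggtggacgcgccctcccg
Lamp2: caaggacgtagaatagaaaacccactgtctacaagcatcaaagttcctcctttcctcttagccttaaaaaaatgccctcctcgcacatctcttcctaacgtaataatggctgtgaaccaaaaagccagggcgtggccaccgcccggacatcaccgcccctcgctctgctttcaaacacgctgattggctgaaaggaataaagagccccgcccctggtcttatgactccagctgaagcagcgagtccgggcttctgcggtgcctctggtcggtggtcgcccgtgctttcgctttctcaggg
Sqstm1: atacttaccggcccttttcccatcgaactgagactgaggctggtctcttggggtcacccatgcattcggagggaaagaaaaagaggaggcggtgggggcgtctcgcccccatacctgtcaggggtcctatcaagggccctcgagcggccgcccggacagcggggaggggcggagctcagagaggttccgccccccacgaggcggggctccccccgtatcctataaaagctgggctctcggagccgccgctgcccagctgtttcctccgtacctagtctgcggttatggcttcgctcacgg

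The Lamp1 window held 5 E-boxes, starting 183, 167, 150, 65 and 38 bases before the RefSeq start. The Ctsd window held 2, starting 157 and 10 bases before it. Neither the Lamp2 nor the Sqstm1 window held these letters. CACGTG is its own reverse complement, so a match counts for both strands, and no overlap between matches occurred. Of 33465 rat promoter windows of the same length, 2147 (6.42%) held at least 1 E-box and 174 (0.520%) held at least 2. Only 1 window held 5 or more, that of Lamp1. These are matches of letters and not measured binding sites.

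**Figure D1:**
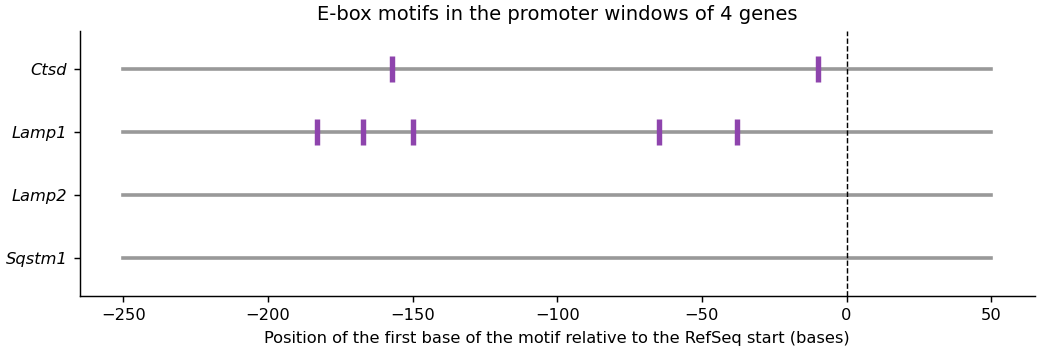
Position of each E-box (purple bar) in the promoter windows of 4 genes, on an axis in bases relative to the RefSeq start, marked by the dashed line. Lamp1 holds 5 bars, Ctsd holds 2, and Lamp2 and Sqstm1 hold none.

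Library totals ranged from 11685202 to 34198536 estimated counts. For 9 of the 11 libraries, log2 levels over all genes correlated with those of the most similar other library at 0.981 or higher. P23H DMSO replicate 3 reached at most 0.844 with any other library, and P23H halofantrine replicate 1 reached 0.942. The tests below are given with and without them. Levels below are CPM, the counts scaled to a common library size with TMM factors, and differences are log2 fold changes from edgeR's quasi-likelihood test across all genes, called at an adjusted p under 0.05. The table gives no gene lengths here, so levels were compared between libraries and not between genes. In whole retina, fewer cells of a type and less RNA per cell cannot be told apart. Markers of retinal cell types and the wider lists of lysosome and autophagy genes were not analysed here, because the identifiers could not be paired with symbols. Each library carried its own animal number, and the tests set differences between groups against the spread between libraries within groups. The animal numbers of each group fell in a separate range, so group and number range cannot be told apart.

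Ctsd (ENSRNOG00000020206), the aspartic protease, stood at 289 and 267 CPM in the wild-type libraries. It was at 331, 272, 845, 345 and 351 CPM in P23H DMSO replicates 1 to 5. In the halofantrine libraries it was at 262, 341, 340 and 347 CPM. Replicate 3 of the DMSO group was the highest of all 11, the lowest halofantrine library lay below both wild-type libraries, and all 3 groups overlapped. Group means were 278 ± 15.5 CPM (SD, n = 2) in wild type, 429 ± 235 (n = 5) in DMSO and 323 ± 40.5 (n = 4) in halofantrine. Without the 2 libraries that stood apart the DMSO mean was 325 ± 36.0 (n = 4) and the halofantrine mean 343 ± 3.78 (n = 3), a smaller gap than the spread of the DMSO libraries.

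Ctsb (ENSRNOG00000010331), the cysteine protease, was at 297 and 265 CPM in wild type. The DMSO libraries gave 354, 341, 1368, 337 and 342 CPM, so that 4 of the 5 lay close together and replicate 3 stood far above. Halofantrine libraries gave 399, 333, 424 and 378 CPM. Every P23H library exceeded both wild-type libraries, and the halofantrine and DMSO groups overlapped. The means were 281 ± 22.9 CPM (n = 2), 548 ± 458 (n = 5) and 384 ± 38.4 (n = 4) in the same order of groups. Leaving out the libraries that stood apart gave 344 ± 7.59 for DMSO (n = 4) and 378 ± 45.2 for halofantrine (n = 3).

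Lamp1 (ENSRNOG00000019629), a membrane glycoprotein often used to mark lysosomes, varied little outside DMSO replicate 3. It was at 189 and 187 CPM in wild type and at 188, 189, 200 and 191 CPM with halofantrine. With DMSO it was at 186, 174, 389, 188 and 187 CPM. The groups overlapped throughout, and without the libraries that stood apart the coefficient of variation was 3.46% over 4 DMSO libraries and 3.03% over 3 halofantrine libraries. None of its 11 estimated counts was a whole number, whereas the counts of Ctsd and Ctsb were whole in 11 of 11 libraries. Those of Sqstm1 were whole in 8 of 11 and those of Lamp2 in 3 of 11.

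Lamp2 (ENSRNOG00000000164), the second membrane glycoprotein, has a splice form that serves as the receptor of chaperone-mediated autophagy. Its level was 64.6 and 68.6 CPM in wild type. In the DMSO group it was 87.8, 98.0, 168, 82.3 and 69.0 CPM, and in the halofantrine group 125, 78.5, 82.0 and 73.1 CPM. All 9 P23H libraries lay above both wild-type libraries, though the lowest DMSO library exceeded the higher wild-type value by less than 1 CPM. Group means were 66.6 ± 2.83 CPM (n = 2) in wild type, 101 ± 38.9 (n = 5) in DMSO and 89.5 ± 23.7 (n = 4) in halofantrine. Without the libraries that stood apart, DMSO was at 84.3 ± 12.1 (n = 4) and halofantrine at 77.8 ± 4.49 (n = 3).

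Sqstm1 (ENSRNOG00000003147), the cargo receptor, had a tight DMSO group. Wild type gave 265 and 241 CPM. DMSO libraries gave 371, 347, 389, 366 and 374 CPM, a coefficient of variation of 4.06% with replicate 3 included and 3.25% without it, where that of Ctsb was 2.21%. The halofantrine libraries gave 227, 391, 390 and 419 CPM. All 5 DMSO libraries and 3 of the 4 halofantrine libraries lay above wild type, whereas halofantrine replicate 1 was the lowest of the 11. Means were 253 ± 16.9 CPM (n = 2), 369 ± 15.0 (n = 5) and 357 ± 87.4 (n = 4), and the halofantrine mean was 400 ± 16.5 (n = 3) without replicate 1.

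**Figure D2:**
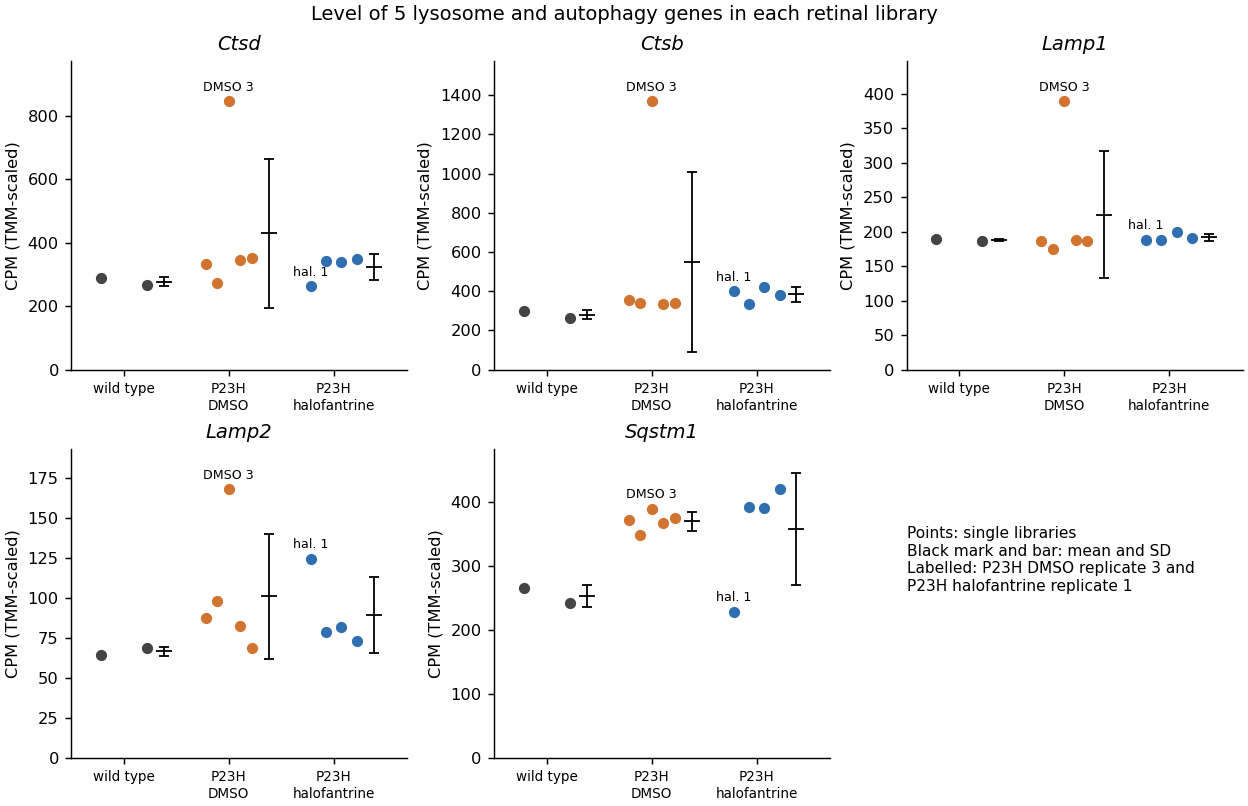
Level of each gene in CPM (TMM-scaled, axes from 0) in single libraries of the 3 groups, with the group mean and SD in black. DMSO replicate 3 lies far above its group for Ctsd, Ctsb, Lamp1 and Lamp2 (845, 1368, 389 and 168 CPM) but not for Sqstm1, for which halofantrine replicate 1 is the low point at 227 CPM.

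In P23H DMSO against wild type, none of the 5 genes passed the test over all 11 libraries, in a comparison in which 21.2% of the 12031 genes did. The 5 log2 fold changes were all positive, with a median of 0.60 beside a median of 0.04 over all genes. Without DMSO replicate 3 the median of the 5 was 0.22 beside -0.04 over all genes, and Lamp1 was negative at -0.10. Sqstm1 came closest, at 0.55 (SE 0.202, 95% interval 0.10 to 0.99), with an edgeR adjusted p of 0.0761 and an unadjusted p of 0.0207, the only 1 of the 5 under 0.05, where 37.6% of all genes were. Ctsb had the largest estimate, 0.97, with an interval of -0.25 to 2.18 and an adjusted p of 0.222. Ctsd (0.63, adjusted p = 0.252), Lamp2 (0.60, adjusted p = 0.198) and Lamp1 (0.26, adjusted p = 0.529) had intervals that also spanned 0. Groups did not overlap, with P23H higher, for 3 of the 5 genes (Ctsb, Lamp2 and Sqstm1), and 27.1% of all genes showed that order. Without the 2 libraries that stood apart the same 3 genes showed it, beside 33.6% of all genes.

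The call for Sqstm1 turned on which libraries and tool were used. DESeq2 called it in place of edgeR (log2 fold change 0.52, adjusted p = 0.0449), alone of the 5 and beside 28.3% of all genes. Limma-voom called none, beside 14.4%, and limma-voom with sample weights called 4 of the 5, all but Lamp1, beside 59.9%. Without halofantrine replicate 1, which belongs to neither group but enters the shared scaling and estimate of spread, Sqstm1 was called at 0.48 (edgeR adjusted p = 0.00555), beside 29.2% of all genes. Without DMSO replicate 3 alone it was at 0.46 and not called (edgeR adjusted p = 0.110, beside 30.3% of all genes). It was at 0.57 without wild-type replicate 1 and 0.45 without wild-type replicate 2, fits that rest wild type on a lone sample. With both halofantrine replicate 1 and DMSO replicate 3 left out it was called at 0.46 (SE 0.0829, interval 0.27 to 0.64, adjusted p = 0.00150), where 44.8% of all genes were called. In the same fit Ctsb was at 0.22, Ctsd at 0.15, Lamp2 at 0.27 and Lamp1 at -0.10, all below their values over 11 libraries. None of these 4 passed (edgeR adjusted p from 0.106 to 0.258).

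In P23H halofantrine against P23H DMSO, 0 of the 5 genes were called, and 0.00831% of all genes were, a single gene. None of the 5 had an unadjusted p under 0.05, which 10.9% of all genes had. DESeq2 and limma-voom, without and with sample weights, also called none of the 5, beside 0.283%, 0.00831% and 6.17% of all genes. The log2 fold changes were -0.41 for Ctsd, -0.52 for Ctsb, -0.23 for Lamp1, -0.17 for Lamp2 and -0.05 for Sqstm1, with edgeR adjusted p from 0.616 to 0.933. For Sqstm1 the interval was -0.40 to 0.30 over all 11 libraries, and its upper limit was 0.35 without DMSO replicate 3. For Ctsb the interval was wide, -1.44 to 0.41. In no member did the 2 groups separate over all 11 libraries, as 2.97% of all genes did in either direction.

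The negative signs of Ctsd, Ctsb and Lamp1 rested on DMSO replicate 3. That of Sqstm1 rested on halofantrine replicate 1, without which it was at 0.13. Lamp2 turned positive without DMSO replicate 3 alone, but was at -0.37 without halofantrine replicate 1 and stayed negative without both. Without DMSO replicate 3 the values were 0.01 for Ctsd, 0.18 for Ctsb, 0.08 for Lamp1 and 0.11 for Lamp2. That of Sqstm1 was -0.01, with 0 of the 5 called beside 0.00831% of all genes. With halofantrine replicate 1 also left out, Ctsd was at 0.10 (interval -0.10 to 0.30), Ctsb at 0.16 (-0.04 to 0.36) and Lamp1 at 0.09 (-0.05 to 0.23). Lamp2 was then at -0.09 (-0.33 to 0.15) and Sqstm1 at 0.16 (-0.0024 to 0.31, edgeR adjusted p = 0.286). No member was called without both libraries, beside 0.0166% of all genes, and all 5 intervals included 0. In that set of libraries every halofantrine value exceeded every DMSO value for 2 of the 5 genes, Lamp1 (189 to 200 against 174 to 188 CPM) and Sqstm1 (390 to 419 against 347 to 374 CPM). Of all genes, 10.7% separated in either direction there.

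In P23H halofantrine against wild type, which shares its wild-type libraries with the DMSO comparison, 0 of the 5 genes were called over all 11 libraries, beside 13.1% of all genes. Sqstm1 was at 0.50 (SE 0.208), with an edgeR adjusted p of 0.133 and an unadjusted p of 0.0362, again the only 1 under 0.05, where 31.3% of all genes were. Ctsb was at 0.45, Lamp2 at 0.43, Ctsd at 0.22 and Lamp1 at 0.03, with adjusted p of 0.593, 0.387, 0.722 and 0.955. DESeq2 and limma-voom called none, beside 20.7% and 8.51% of all genes, and limma-voom with sample weights called 3 (Ctsd, Ctsb and Sqstm1), beside 55.0%. Ctsb and Lamp2 were higher in every halofantrine library than in wild type, an order that 26.0% of all genes showed. Without the 2 libraries that stood apart it held for 4 of the 5 genes, all but Lamp1, and for 36.8% of all genes.

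Leaving out halofantrine replicate 1 brought Sqstm1 to 0.61 (edgeR adjusted p = 0.00456), beside 23.2% of all genes called. Leaving out DMSO replicate 3 brought Ctsb to 0.40 (adjusted p = 0.0245), beside 29.8%. Without both libraries, Sqstm1 was at 0.61 (SE 0.0872, interval 0.42 to 0.81, adjusted p = 0.000442) and Ctsb at 0.38 (SE 0.109, interval 0.14 to 0.62, adjusted p = 0.0170), both called beside 45.5% of all genes. Ctsd at 0.25, Lamp2 at 0.17 and Lamp1 at -0.01 did not pass there.

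**Figure D3:**
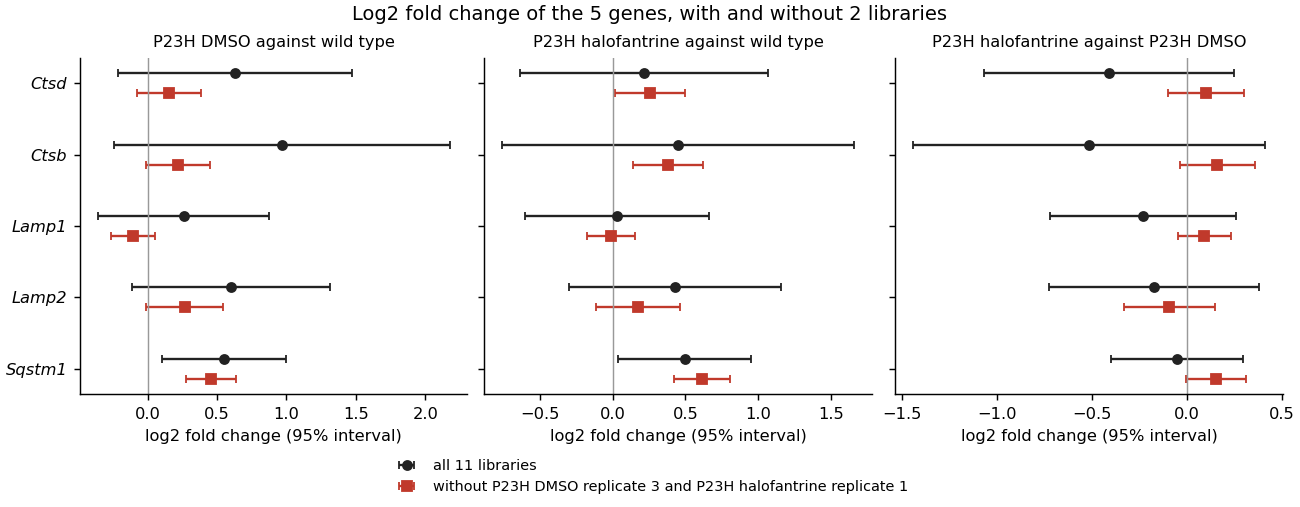
Log2 fold change (point) and 95% interval (bar) of each gene in the 3 comparisons, from all 11 libraries (black circles) and without the 2 libraries that stood apart (red squares), with 0 as a grey line. The red intervals of Sqstm1 lie above 0 in both comparisons with wild type, as do those of Ctsb and Ctsd in halofantrine against wild type, and those of halofantrine against DMSO all include 0.

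The departure of single libraries differed between the genes. In P23H DMSO replicate 3, Ctsb was 3.98-fold, Ctsd 2.60-fold, Lamp1 2.12-fold and Lamp2 1.99-fold its mean over the remaining 4 DMSO libraries, and Sqstm1 was 1.07-fold. Over all genes the median was 0.964-fold, and 9.64% of 12029 genes exceeded 2-fold. The 5 genes together took 0.309% of that library's counts, against 0.127% to 0.136% in the other DMSO libraries. In halofantrine replicate 1 the order was different: Sqstm1 was 0.568-fold and Ctsd 0.765-fold the mean of the other 3 libraries, Lamp2 was 1.60-fold, and Ctsb and Lamp1 were 1.05-fold and 0.973-fold. Whether markers of any cell type moved with these genes in either library was not tested.

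**Figure D4:**
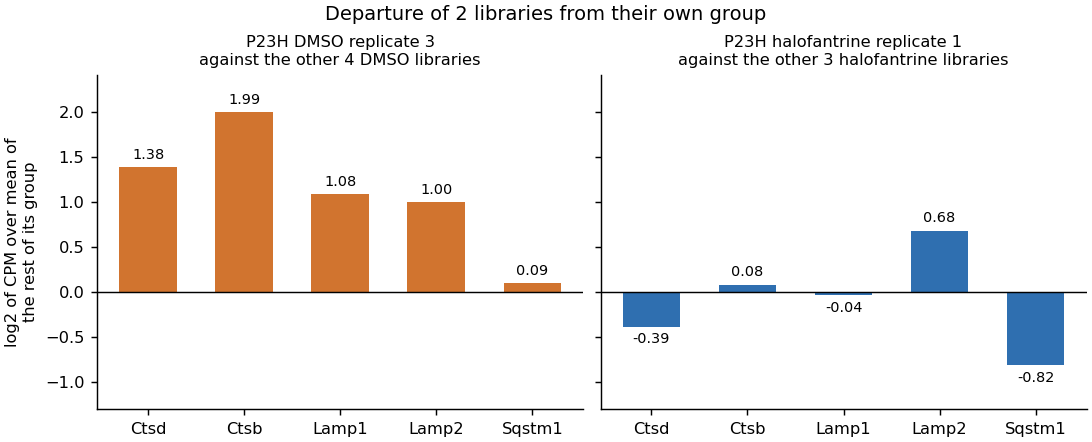
Level in the 2 libraries that stood apart as log2 of the ratio to the mean of the rest of their group, with 0 meaning no departure. Ctsb is highest in DMSO replicate 3 at 1.99 while Sqstm1 is at 0.09, and in halofantrine replicate 1 Sqstm1 is at -0.82 and Lamp2 at 0.68.

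Ratios of 2 genes within a library do not depend on its scaling, and they are given as a description. The ratio of Sqstm1 to Lamp1 was 1.40 and 1.29 in wild type. It was between 1.95 and 2.00 in 4 of the DMSO libraries and 0.999 in replicate 3. With halofantrine it was 2.07, 1.95 and 2.19 in replicates 2 to 4 and 1.21 in replicate 1. Outside the 2 libraries that stood apart, this ratio was thus higher in all 7 P23H libraries than in wild type. The same held for Ctsd to Lamp1. Ctsb to Lamp1 was higher in every P23H library (1.77 to 3.51) than in wild type (1.42 to 1.57). How often pairs of other genes show such an order was not determined. Among single genes without those 2 libraries, 33.6% lay above wild type in every DMSO library and 36.8% in every halofantrine library. The ratio of Lamp2 to Lamp1 ran from 0.341 to 0.367 in wild type and from 0.369 to 0.562 with DMSO, and in halofantrine from 0.382 to 0.662.

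Transcripts could be assigned to 3 of the genes, because in all 11 libraries the deposited counts of a single set of transcripts added up to the gene's count within 0.001 counts. Ctsd had 3 transcripts, Ctsb 2 and Sqstm1 3. No set of 2 or 3 was found for Lamp1 or Lamp2, whose transcripts were not analysed here. The transcripts of a gene share reads, so their separate counts are estimates of the quantification and less certain than the gene's count.

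Sqstm1 transcript ENSRNOT00000098202.2 was at 42.1 and 42.2 CPM in wild type and at 70.9, 70.3, 85.0, 74.0 and 77.1 CPM with DMSO. With halofantrine it was at 51.1, 83.6, 68.9 and 86.8 CPM. All 9 P23H libraries were above wild type, halofantrine replicate 1 among them. Both Ctsb transcripts showed the same order, and the share of all transcripts that did was not determined. Among genes, 27.1% lay above wild type in every DMSO library and 26.0% in every halofantrine library. ENSRNOT00000098202.2 rose in DMSO against wild type by 0.84 on the log2 scale (SE 0.193, edgeR adjusted p = 0.0498). It was the only 1 of 8 member transcripts called, where 2.90% of 43372 transcripts were. The call sat at the threshold: with 1 library left out at a time it was lost in 10 of 11 fits (adjusted p from 0.0525 to 0.324) and kept without halofantrine replicate 1 (adjusted p = 0.0117). Without both libraries that stood apart it was at 0.74 (adjusted p = 0.00579), and ENSRNOT00000059255.7, the most abundant Sqstm1 transcript, was called as well at 0.43 (adjusted p = 0.0468), beside 8.25% of all transcripts. In halofantrine against DMSO, 0 of 8 transcripts were called, beside 0.00231% of all transcripts, and none had an unadjusted p under 0.05 over all 11 libraries. Without both libraries that stood apart, ENSRNOT00000059255.7 was at 0.23 (interval 0.02 to 0.45, unadjusted p = 0.0346, edgeR adjusted p = 0.650) and not called.

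The share of a gene's counts given to each transcript varied differently in the 3 genes. ENSRNOT00000098202.2 made up 17.2% ± 1.20 of Sqstm1 counts in wild type (SD, n = 2), 20.8% ± 0.592 with DMSO (n = 5) and 20.9% ± 2.98 with halofantrine (n = 4), and the wild-type and halofantrine ranges overlapped. Without the 2 libraries that stood apart it was 20.6% ± 0.376 with DMSO (n = 4) and 19.7% ± 2.26 with halofantrine (n = 3). For Ctsb, ENSRNOT00000145665.1 took 54.4% to 58.4% of the counts in wild type, 53.9% to 57.5% in DMSO, replicate 3 included at 55.8%, and 54.9% to 61.7% in halofantrine. For Ctsd, ENSRNOT00000027407.6 ranged from 0.000206% to 32.5% among the DMSO libraries and from 0.663% to 39.1% among the halofantrine libraries. The split of Ctsd reads between its transcripts thus varied by more within groups than between group means, which were 20.6% in wild type, 16.9% in DMSO and 16.9% in halofantrine.

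**Figure D5:**
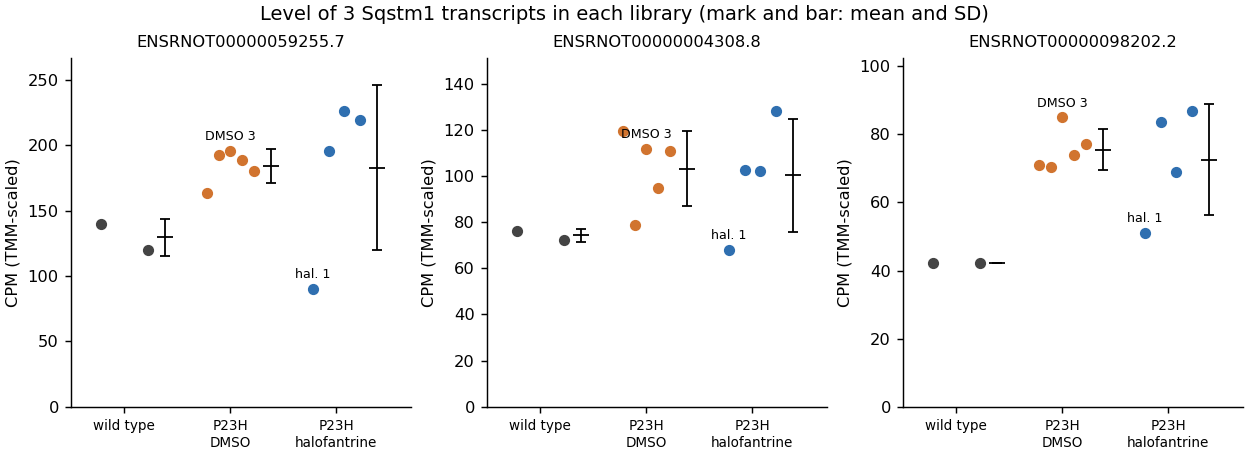
Level of the 3 Sqstm1 transcripts in CPM (TMM-scaled over transcripts, axes from 0) in single libraries, with the group mean and SD in black. For ENSRNOT00000098202.2, at right, both wild-type points sit at 42.1 and 42.2 CPM and every P23H point is higher.

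Likeness of pattern was measured by Pearson r of log2 CPM across libraries, as a description over points that share groups and scaling. Over 11 libraries, Ctsb and Lamp1 had an r of 0.961, Ctsd and Lamp1 0.947, and Ctsd and Ctsb 0.928. Over the 10 libraries without DMSO replicate 3 these were 0.371, 0.459 and 0.347, so the likeness of these 3 genes over 11 libraries rested mainly on that library. Without halofantrine replicate 1 as well (9 libraries) they were 0.398, 0.538 and 0.678. Sqstm1 and Ctsd had an r of 0.511 over 11 libraries, 0.869 over 10 and 0.820 over 9. Over 10 libraries Ctsd ranked only 632 of 12030 genes by likeness to Sqstm1. Pairs of members over 9 libraries ran from -0.439 (Lamp1 and Lamp2) to 0.865 (Ctsb and Sqstm1). The gene most like Sqstm1 was ENSRNOG00000052113 (r = 0.990 over 11 and over 10 libraries), and that most like Lamp1 was ENSRNOG00000036689 (r = 0.999 over 11 and 0.967 over 10).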

How the data were processed

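RNA of 11 rat retinas was sequenced, and the authors quantified reads with kallisto on the rat Ensembl transcriptome (release 115) and obtained gene values from the transcripts through tximport. Gene and transcript tables as deposited hold estimated counts, not scaled for depth, of 12037 genes and 95472 transcripts; the filter that gave the gene table was not given in the sources used here. The authors also deposited a normalized table, whose signal is each estimated count divided by a constant per library. It served as an alternative scaling. A further deposited table holds the authors' own comparison of halofantrine with DMSO (log2 fold changes, mean expression, test statistics and p-values) and was not used.

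Estimated counts were rounded and tested with edgeR 4.0.16 in R 4.3.3 (TMM factors, filterByExpr, quasi-likelihood test, Benjamini-Hochberg adjustment over all features). All 11 libraries entered a single fit without covariates, and 12031 genes were tested. Alternatives used DESeq2 1.42.0, limma 3.58.1, other scalings and fewer libraries. The procedure was tested on simulated counts, where it estimated changes without marked bias but, in P23H DMSO against wild type, seldom called changes of the size estimated for Sqstm1. Fewer genes were changed in that simulation than were called in the data, and no simulated library was made to stand apart. The recovery for Sqstm1 in the data may therefore differ. No pair of libraries was a duplicate: the lowest chi-square over its degrees of freedom was 6.87. The 5 genes were to be named throughout, with the genes most like them. The members and the lists were chosen with earlier results of these data known. Promoter windows came from RefSeq (GRCr8). None of the identifiers matched a symbol in the table at hand (0 of 12037).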

Additional observations from a re-analysis of the deposited data

Results flagged for a closer look

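In P23H DMSO replicate 3, 3 genes lay apart from the other 4 libraries of the group by Dixon's test: Ctsd at 845 CPM, Ctsb at 1368 CPM and Lamp1 at 389 CPM. The same library lay apart for the Ctsd transcript ENSRNOT00000027407.6 at 277 CPM and for both Ctsb transcripts, ENSRNOT00000145665.1 at 770 CPM and ENSRNOT00000014177.7 at 610 CPM. P23H halofantrine replicate 1 lay apart for Ctsd at 262 CPM and for Sqstm1 at 227 CPM, below the other 3 libraries in both. In all, 8 of 26 sets of values had a library apart, where chance at about 1 in 20 gives 1.3. Over all 12031 genes, the same test set DMSO replicate 3 apart for 17.6% and halofantrine replicate 1 for 5.34%, beside 3 and 2 of the 5 genes here. Genes and their transcripts share reads, so these 8 are not independent.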

How the results depend on the processing

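Of 305 values of the 5 genes under other settings, 265 kept their direction and side of the threshold. A further 15 kept their direction and passed it, and 25 changed sign. No call could be lost, since none of the 5 genes was called in the main fit. The number of genes called in P23H DMSO against wild type was 0 and became 1 with DESeq2, 4 with limma-voom and sample weights, 1 without the 2 libraries that stood apart and 1 with plain library totals, a scaling added after seeing the data; with 1 library left out at a time it ranged from 0 to 1. Over all genes 21.2% were called, and under those 4 settings 28.3%, 59.9%, 44.8% and 22.6%. In halofantrine against wild type it became 3 with sample weights and 2 without both libraries (55.0% and 45.5% of all genes, against 13.1%), and ranged from 0 to 1 with 1 library left out. In halofantrine against DMSO it stayed at 0 under every setting run. The number of transcripts called in DMSO against wild type was 1 and became 0 with RLE factors and 2 without both libraries, and ranged from 0 to 1 with 1 library left out; in halofantrine against DMSO that range was 0 to 0.

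Changes of sign, on the log2 scale, were these. With sample weights, Lamp1 was at -0.0027 in DMSO against wild type, and in halofantrine against DMSO Ctsd was at 0.0062, Ctsb at 0.15, Lamp1 at 0.0477 and Sqstm1 at 0.091. Without both libraries, Lamp1 was at -0.10 in DMSO against wild type and -0.0122 in halofantrine against wild type, and in halofantrine against DMSO Ctsd was at 0.10, Ctsb at 0.16, Lamp1 at 0.0927, Sqstm1 at 0.16 and ENSRNOT00000098202.2 at 0.12. Lamp1 in halofantrine against wild type was at -0.0041 with RLE factors, -0.0129 with the authors' library sizes and -0.0041 with DESeq2. With 1 library left out at a time, Lamp1 ranged from -0.10 to 0.32 in DMSO against wild type, from -0.0233 to 0.0371 in halofantrine against wild type and from -0.30 to 0.0816 in halofantrine against DMSO. In the last comparison Ctsd ranged from -0.53 to 0.0108, Ctsb from -0.65 to 0.18, Lamp2 from -0.37 to 0.11, Sqstm1 from -0.14 to 0.13 and ENSRNOT00000098202.2 from -0.15 to 0.0768. Beyond the libraries left out, the cause was not tested.

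Plain library totals moved the median of all genes from 0.04 to 0.15 in DMSO against wild type and from 0.05 to 0.17 in halofantrine against wild type. No paired analysis was possible because the labels carry no replicate numbers that the groups share. The alternatives for the wider gene lists were not run, since identifiers could not be paired with symbols. With 2 wild-type libraries, leaving out either rests that group on a lone sample assumed to vary like the rest.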
